A study of Homo sapiens with 34 samples.

Results

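Of 79987 regions with histone H3 acetylated at lysine 27 (H3K27ac) in induced DLD1 cells, 9862 overlapped no region of the uninduced list by a single base, a share of 12.3%. These are called induced-only regions here. They were chosen by comparing unique intervals on chromosomes 1 to 22 and X of the induced peak list with those of the uninduced list. The other 70125 induced regions are called shared. The same rule turned round gave 11336 uninduced-only regions, 14.5% of the 78005 uninduced regions. The 4 lists of the study held 265904 regions in all.

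DLD1 is an established colorectal adenocarcinoma cell line, and the cells carried, beside their own TCF7L2 gene, a transgene that makes dominant negative TCF7L2 when tetracycline or its analogue doxycycline is given. Induced cells received 1 µg/mL doxycycline for 24 h and uninduced cells, which carried the same transgene, received none. DNA bound to H3K27ac or to RNA polymerase II (Pol II) was recovered by chromatin immunoprecipitation and sequenced, from 2 samples for each antibody and condition, with 1 input sample per condition. Both samples of a condition share 1 peak list, so differences are given without a replicate check and without p-values. Doxycycline itself and the transgene cannot be told apart, since no induced cells without the transgene were analysed here. The labels give 40 to 55M reads per sample, and the lists carry no read totals. At the gene ends of colon epithelial markers, 13 of 14 genes had an H3K27ac region in the induced list and 13 in the uninduced list. CDH17, a cadherin gene of intestinal epithelium, was the one without.

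H3K27ac is laid down by acetyltransferases such as p300 and marks active promoters and enhancers. TCF7L2 binds DNA at Wnt target genes, where β-catenin joins it and brings in such coactivators. A dominant negative form keeps DNA binding but does not bind β-catenin. In colorectal cancer cells the Wnt pathway is usually switched on by mutation, and blocking it is known to lower stem and progenitor genes and to raise genes of differentiated colonocytes. Pol II regions mark where the transcribing enzyme is loaded or paused, mostly at gene starts and at strong enhancers.

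Induced-only regions rarely covered the start of a gene. Of the 34781 RefSeq promoters compared (GRCh38.p14), each running from 250 bases before to 50 bases after the start, 158 were overlapped by an induced-only region, a share of 0.454%. Of these, 89 belonged to protein-coding genes. Promoter sequences of 3 genes are shown because an induced-only region covered the whole window and because they differ in base composition and in Pol II. They are ASIC5, an acid-sensing ion channel gene, at chr4:155866228-155866527 on the minus strand, EHD2, a membrane-remodelling ATPase gene, at chr19:47713172-47713471 on the plus strand, and MOGAT3, an acyltransferase gene of triglyceride synthesis in gut and liver, at chr7:101200987-101201286 on the minus strand. Each is printed 5′ to 3′ on the strand of its gene, and capitals mark a match to the core letters of the TCF motif.
ASIC5: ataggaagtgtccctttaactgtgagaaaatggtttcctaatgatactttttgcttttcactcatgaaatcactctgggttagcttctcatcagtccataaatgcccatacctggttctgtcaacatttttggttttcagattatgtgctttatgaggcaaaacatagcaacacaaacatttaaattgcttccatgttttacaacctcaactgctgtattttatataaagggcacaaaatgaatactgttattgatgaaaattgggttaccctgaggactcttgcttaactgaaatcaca
EHD2: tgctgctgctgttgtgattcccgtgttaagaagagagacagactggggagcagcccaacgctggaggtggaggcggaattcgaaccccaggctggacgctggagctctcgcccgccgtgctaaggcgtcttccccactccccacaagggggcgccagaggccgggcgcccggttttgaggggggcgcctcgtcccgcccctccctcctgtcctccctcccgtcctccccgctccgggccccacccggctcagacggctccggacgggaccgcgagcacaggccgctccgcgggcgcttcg
MOGAT3: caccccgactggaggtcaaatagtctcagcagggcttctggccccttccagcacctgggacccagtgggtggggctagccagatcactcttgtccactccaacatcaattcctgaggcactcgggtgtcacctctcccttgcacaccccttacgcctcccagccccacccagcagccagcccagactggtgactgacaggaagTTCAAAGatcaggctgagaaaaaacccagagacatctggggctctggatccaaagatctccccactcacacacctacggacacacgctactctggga

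The region over the ASIC5 promoter had the highest −log10 q of the 158, at 15.7, with a fold of 6.33 and a width of 546 bp, and no Pol II region of either list overlapped it. The region over the EHD2 promoter had a fold of 5.18 at a −log10 q of 10.7. Pol II lay on it in both lists, with a fold of 6.44 in the induced list and 6.70 in the uninduced list. The region over the MOGAT3 promoter had a −log10 q of 8.37, a fold of 4.48 and no Pol II. The ASIC5 window was poor in G and C, at 35.3%, against 71% for EHD2 and 58.3% for MOGAT3. EHD2 and MOGAT3 were named after their values were seen.

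The TCF letters CTTTGAT or CTTTGAA, read on both strands, were found in 15 of the 158 promoters under induced-only regions, or 9.49% (Wilson 95% interval 5.84 to 15.1, counting error only, as for every interval below). They were found in 14.5% (9.49 to 21.5) of the 131 promoters under uninduced-only regions, in 4.11% (3.82 to 4.42) of those under shared regions and in 6.89% of all promoters. The intervals of the first 2 sets overlapped. The letters TGANTCA of the AP-1 motif, read on both strands and able to share bases with a TCF match, were in 12.7% (8.35 to 18.7), 12.2% (7.66 to 18.9), 5.74% and 7.69% of the same 4 sets. Base composition moved with these shares. The median G and C content was 55.8% under induced-only, 52% under uninduced-only and 65.3% under shared regions, and its part in the shares was not tested.

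Induced-only regions were narrow and weak, which the rule itself favours, so the next values only describe them. Their width had a median of 372 bp, with quartiles of 306 and 491 bp and extremes of 268 and 2169 bp. Shared regions had a median width of 1267 bp and uninduced-only regions one of 398 bp. The median −log10 q, the caller's measure of how surely a region stands above background, was 3.81 for induced-only, 25.2 for shared and 4.22 for uninduced-only regions. The median fold over that background was 3.09, 7.50 and 3.06 in the same order. A single summit was listed in 90.9% of induced-only regions, against 42.2% of shared ones. Together they covered 4294 kb of the 132.6 Mb of the induced list.

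The weakest regions of the list were as often induced-only as shared. At a −log10 q up to 2, induced-only regions made up 49.3% of the induced list. The share was 37.0% between 3 and 5, 17.6% between 5 and 10, 3.71% between 10 and 20 and 0.0753%, or 29 regions, above 20. Of the 4 regions wider than 2 kb, the widest lay 4.18 kb from APOC1, an apolipoprotein gene, and the others were near ASPG (2026 bp), inside RANBP2 (2003 bp) and inside ASPRV1 (2002 bp). The −log10 q of these 4 ran between 9.90 and 19.4.

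**Figure D1:**
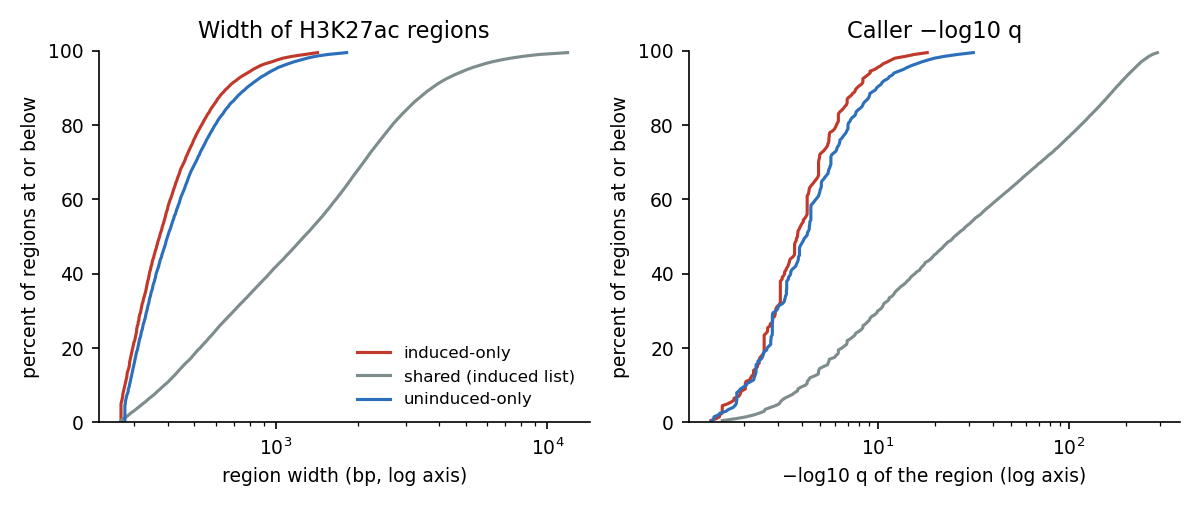
Cumulative percent of H3K27ac regions by width in bp (left, log axis) and by the caller's −log10 q (right, log axis), for induced-only regions (red), shared regions of the induced list (grey) and uninduced-only regions (blue). The red and blue curves run close together, with median widths of 372 and 398 bp, and the grey curve lies far to the right with a median of 1267 bp.

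The border between the sets was thin for a small part of the regions. Just inside it, the 3 induced-only regions nearest to an uninduced one were 0, 1 and 2 bp away, near CLVS1, near OPA1 and inside ATAD2B, with −log10 q of 2.91, 2.54 and 8.32. Just outside it, the 3 with the smallest overlap, 1 bp each, were inside FBXO42, near GNAT3 and inside CYP26B1, with −log10 q of 4.37, 2.82 and 2.03. A gap of at most 50 bp was found for 192 induced-only regions, and an overlap of at most 50 bp for 179 shared ones. For the shared regions the median overlap was 97.2% of their length.

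Many induced-only regions lay close to acetylated chromatin listed in both conditions. The gap to the nearest uninduced region had a median of 1.59 kb, with quartiles of 356 bp and 8.47 kb. It was at most 1 kb for 4321 regions, or 43.8% (42.8 to 44.8), and over 10 kb for 2202, or 22.3%. A further limit of 100 kb was passed by 177. Of the uninduced regions next to those 4321, 92.0% overlapped an induced region, and their median −log10 q was 16.2, against 85.5% and 21.3 for all uninduced regions. Uninduced-only regions lay slightly farther from the other list, with a median gap of 2.09 kb and 40.2% (39.3 to 41.1) within 1 kb. Shared regions were spaced much alike, with a median gap of 1.68 kb to the nearest other shared region. That gap was at most 1 kb for 45.1% and over 10 kb for 24.1%, so closeness was not particular to induced-only regions.

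By distance from the uninduced list, the induced-only regions differed little in width and somewhat more in gene context. Their median width was 361 bp within 1 kb, 388 bp between 1 and 10 kb and 368.5 bp beyond 10 kb, and the median −log10 q was 3.62, 3.82 and 4.27. The share at gene ends was 4.84%, 3.68% and 2.77% over these 3 classes, and the share with an induced Pol II region was 5.92%, 5.39% and 4.90%.

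Set against genes, the induced-only regions were distal. Only 393, or 3.98% (3.62 to 4.39), lay at gene ends, that is within 1 kb of the start or end of a protein-coding gene, against 19.1% of shared regions and 4.15% of uninduced-only regions. Another 4718, or 47.8%, lay inside a gene away from its ends, and 4751, or 48.2%, between genes. For shared regions the share inside genes was 41.3%, and for uninduced-only regions it was 49.6%. Around RefSeq start sites alone, with chromosome 8 left out as for the promoters, 1.85% (1.60 to 2.14) of induced-only regions lay within 1 kb, against 16.0% of shared and 1.67% of uninduced-only regions.

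Among shared regions the share at gene ends was highest in the strongest bands of −log10 q, which was not so for induced-only regions up to 20. The sets were closer than overall in each band up to 20, but not above it. Induced-only regions were also narrower in each band, and the part of width was not tested. Among regions with a −log10 q up to 2, the share at gene ends was 4.23% for induced-only and 5.01% for shared regions, and between 2 and 3 it was 3.98% and 4.48%. The gap was wider between 5 and 10, at 3.75% (3.05 to 4.61) for induced-only and 5.23% (4.83 to 5.67) for shared regions, and between 10 and 20, at 2.45% (1.34 to 4.45) and 6.31% (5.87 to 6.79). Above 20 it was 6.90% (1.91 to 21.96) of the 29 induced-only and 30.3% of the shared regions.

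**Figure D2:**
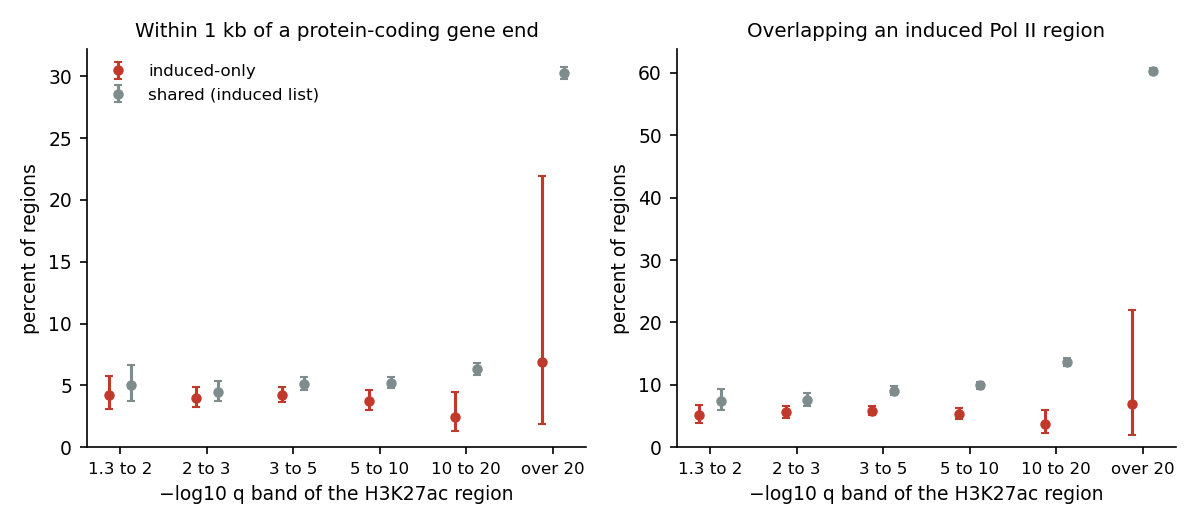
Percent of induced-only (red) and shared (grey) H3K27ac regions within 1 kb of a protein-coding gene end (left) and overlapping an induced Pol II region (right), by band of the region's −log10 q; points are shares and bars Wilson 95% intervals. At gene ends the sets lie close together up to a −log10 q of 3, and for Pol II the shared share climbs to 60.3% while no induced-only band passes 6.90%.

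The induced-only regions at gene ends with the highest −log10 q lay at genes of several kinds. The highest of all 9862 lay at an end of ACER3, an alkaline ceramidase gene, at chr11:77026742-77027366, with a fold of 7.71 at a −log10 q of 34.4. It stood 241 bp from an uninduced region with a fold of 2.72, and a Pol II region crossed it with a fold of 2.68 in the induced list and 4.29 in the uninduced list. The next were at OR2A5, an olfactory receptor gene (21.95), UST, a sulfotransferase gene (16.8), ASIC5 (15.7), REP15, a gene of endosomal recycling (12.9), PSAPL1 within SORCS2 (12.7), ZNF846 (12.5) and RARB, the retinoic acid receptor β gene (11.5). The region at OR2A5 was 77.7 kb from any uninduced region. No Pol II region of either list overlapped any of these 7.

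Among the 12 strongest induced-only regions, those away from gene ends were mostly inside genes. This did not hold for strong regions at large, since between a −log10 q of 10 and 20, 171 lay inside genes and 227 between genes. OTOP3, a proton channel gene beside its paralogue OTOP2, held a region of 817 bp with a fold of 9.12 at a −log10 q of 29.3, the highest fold of all. Others lay inside OVGP1 (28.3), RAPGEF5 (27.6), GRID1 (27.2), SLC9A8, a sodium and proton exchanger gene (26.2), ADAMTS9 (25.8) and PRKCE, a protein kinase C gene (25.2). Those between genes were nearest to NABP1 (28.8, at 94.9 kb), TSC22D2 (26.2, at 30.3 kb), ABHD17C (25.03, at 2.83 kb) and PDGFB, a growth factor gene (24.2, at 32.0 kb). Of the 12 strongest regions, ACER3 included, Pol II overlapped 2. At ABHD17C the Pol II fold was 6.45 in the induced list and 3.35 in the uninduced list, the opposite order to ACER3.

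Pol II was found on few induced-only regions. Of the 9862, 544 or 5.52% (5.08 to 5.98) overlapped an induced Pol II region, against 37.9% of shared regions and 33.9% of all induced regions. An uninduced Pol II region was overlapped by 6.36% (5.89 to 6.86), against 43.6% of shared regions and 39% of all induced regions. The nearest induced Pol II region was a median of 12.3 kb away, and 48.7% of the induced-only regions were over 10 kb from any Pol II region of either list.

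The share with Pol II was lower for induced-only than for shared regions in each of the 6 bands of strength, although at a −log10 q up to 2 the intervals overlapped, with 5.15% (3.87 to 6.82) for induced-only and 7.46% (5.92 to 9.37) for shared regions. Between a −log10 q of 3 and 5, 5.83% of induced-only and 9.08% of shared regions overlapped induced Pol II, and between 10 and 20 it was 3.68% and 13.6%. It was also lower in each gene context. At gene ends the share was 33.1% (28.6 to 37.9) for induced-only and 89.7% for shared regions, inside genes 4.01% and 22.4%, and between genes 4.74% and 29.2%. Width moved with these shares, since induced-only regions were narrower in each band, with a median of 358 against 422 bp between 3 and 5 and 603 against 864.5 bp between 10 and 20. The part of width in the shares was not tested.

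Pol II met in the induced list alone was rarer still. An induced and no uninduced Pol II region overlapped 69 induced-only regions, or 0.6997% (0.553 to 0.884), beside 1.04% of all induced H3K27ac regions. The share was 0.142% with a Pol II −log10 q of at least 5 and 0.395% with no uninduced Pol II within 1 kb. The reverse, an uninduced and no induced Pol II region, was found on 152, or 1.54% (1.32 to 1.80), beside 6.08% of all. These shares are over all regions, and few induced-only regions met Pol II at all. Among regions with induced Pol II, the counts were 69 of 544 for induced-only and 830 of 27149 for all induced regions. Among regions with uninduced Pol II, the reverse was found on 152 of 627 and 4865 of 31184. On these bases both shares were higher for induced-only regions. A Pol II region counted here may still meet an uninduced one beside the acetylated region. Of the 69, 30 had an uninduced Pol II region within 1 kb, so 39 had none that near and 18 had none within 10 kb. Both of the highest Pol II −log10 q among the 69 were at region edges. At C19orf12 the induced Pol II region had a fold of 46.4, and an uninduced one with a fold of 35.0 began 209 bp beyond the acetylated region. At PIK3CA, the gene of a PI3-kinase catalytic subunit, the induced fold was 15.2, and an uninduced region with a fold of 18.2 began 108 bp beyond it. Another edge was at WNT7B, which encodes a Wnt ligand, where the induced fold was 4.38, and an uninduced region with a fold of 3.51 began 164 bp beyond it.

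At the other named regions with induced Pol II alone, uninduced Pol II was mostly farther off and the folds were low. Beside DNAJC1 the nearest uninduced Pol II region was 48.5 kb away, near LAPTM5, a lysosomal membrane protein gene, 40.8 kb, at SYN3 and TIMP3 39.4 kb and near ZNF366 9.69 kb. The induced Pol II folds there were 4.81, 4.36, 5.26 and 4.95, and the H3K27ac folds 5.29, 4.48, 3.55 and 4.24. STAC3, at 828 bp with a Pol II fold of 4.36, completed the 8 named.

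On the 475 induced-only regions with Pol II in both lists, 186 had a higher Pol II fold in the induced list and 289 a lower one. The higher ones made 39.2%, beside 37.1% of all induced regions with Pol II in both lists. The median log2 ratio of induced over uninduced fold was −0.11 for induced-only regions, −0.14 for all induced regions and −0.24 for uninduced-only regions, of which 27.4% were higher. Folds of separate lists are set side by side here as the authors' values, without a test.

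Spacing along the chromosomes was measured by the nearest other induced-only region. Another induced-only region lay within 10 kb of 33.5% (32.6 to 34.5) of them, against 37.1% of uninduced-only regions by the same measure and 75.9% of the far more numerous shared regions. Among the 2731 with a −log10 q of at least 5, the share with another of them that near was 16.1%. When regions up to 50 kb apart were joined, 3774, or 38.3%, stood alone, and 3624, or 36.7%, fell in 887 clusters of 3 or more. There were 16 clusters of 10 or more, and the largest held 13. Uninduced-only regions gave 16 such clusters too, with 17 in the largest.

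The nearest one-condition region tended to be of the same set. Induced-only regions made 46.5% of the 21198 regions listed in 1 condition. Where the nearest such region was within 1 kb, it was induced-only for 82.1% (80.4 to 83.7) of the induced-only regions. The share was 67.9% (65.9 to 69.9) at 1 to 10 kb, 59.3% (57.6 to 60.9) at 10 to 50 kb, 53.7% (50.9 to 56.6) at 50 to 100 kb and 46.8% (43.9 to 49.7) beyond 100 kb. Uninduced-only regions gave 86.1%, 71.8%, 60.6%, 60.8% and 57.9% over the same distances, beside their own 53.5% of one-condition regions. Regions are not independent replicates, and pieces of 1 acetylated stretch count separately here.

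**Figure D3:**
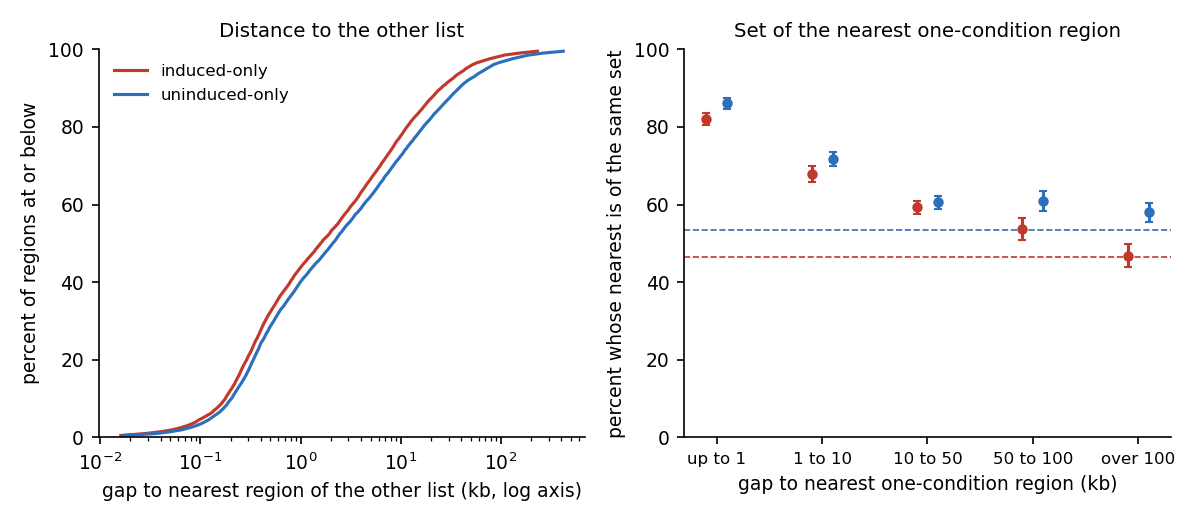
Left, cumulative percent of induced-only (red) and uninduced-only (blue) regions by the gap to the nearest H3K27ac region of the other list in kb (log axis). Right, percent of each set whose nearest one-condition region belongs to the same set, by distance in kb, with Wilson 95% intervals; dashed lines mark each set's share of all one-condition regions, and the red points come down to their line, 46.8% against 46.5%, beyond 100 kb.

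No chromosome stood far from the rest in the share of induced-only regions, which was lowest on chromosome 16, at 10.2% (9.17 to 11.4), and highest on chromosome 10, at 13.8% (12.7 to 14.9). In bins of 1 Mb, 2123 of the 2741 bins with an induced or an uninduced-only region held an induced-only one, and 224 held 10 or more. The number per bin rose with the number of shared regions (Spearman's rho 0.773 across bins) and less with that of uninduced-only regions (0.461), bins being neither independent nor equal in acetylated length. Of 916 bins with at least 10 one-condition regions, 74 were at least 80% induced-only and 99 at most 20%.

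The 2 fullest bins held 28 induced-only regions each. On chromosome 3 between 24 and 25 Mb, with THRB and RARB, the genes of thyroid hormone receptor β and retinoic acid receptor β, they stood beside 46 shared and 0 uninduced-only regions. On chromosome 12 between 12 and 13 Mb, which holds the Wnt coreceptor gene LRP6 and the CDK inhibitor gene CDKN1B, they stood beside 94 shared and 14 uninduced-only regions.

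The first of the 3 clusters of 13 regions lay inside THRB. Over 141.9 kb (chr3:24260321-24402269) it held 13 induced-only and 11 shared regions, with no uninduced-only region. Its strongest members were at chr3:24272412-24274190, with a width of 1779 bp and a fold of 7.73 at a −log10 q of 22.3, and at chr3:24362722-24363677, with a width of 956 bp and a fold of 4.68 at 14.9. The first was 24.7 kb from any uninduced region and the second 880 bp. Over its whole length THRB held 17 induced-only regions, with −log10 q between 1.87 and 22.3. The highest Pol II fold between its ends and 1 kb beyond was 3.77 in the induced and 5.71 in the uninduced list. ASPRV1, ME3 and SHROOM3, picked in the same way for their number of induced-only regions, also held no uninduced-only one. Each had the higher Pol II fold in the induced list. It was 19.7 in the induced and 17.7 in the uninduced list at ASPRV1, and 14.9 in the induced and 12.4 in the uninduced list at ME3. At SHROOM3 it was 14.0 in the induced and 13.1 in the uninduced list. These values are the highest over the whole gene. Within the cluster of 13 induced-only regions inside ASPRV1 the order turned, with highest Pol II folds of 9.15 induced and 10.3 uninduced.

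**Figure D4:**
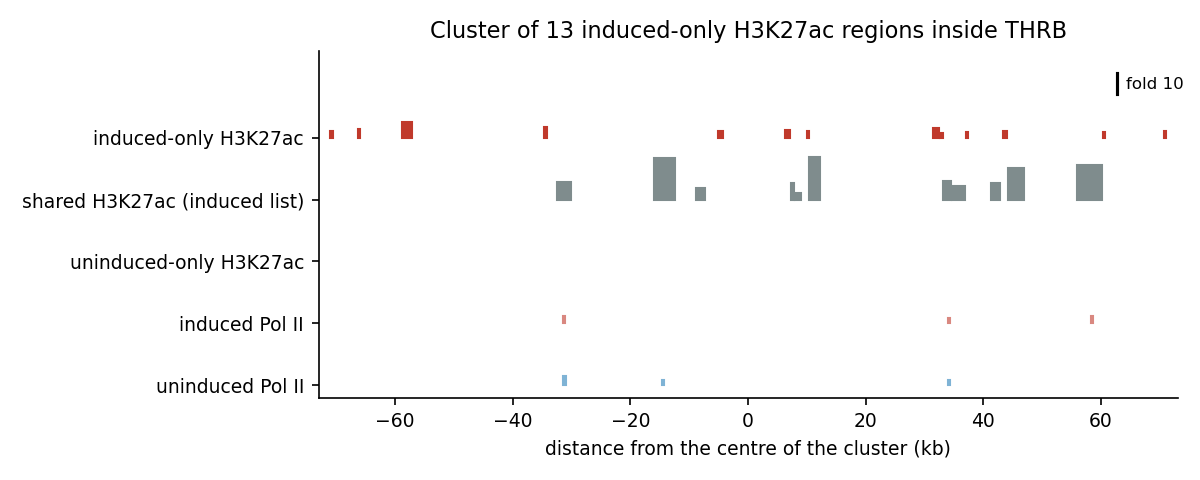
Regions of the THRB cluster by distance in kb from its centre, as bars whose height is the authors' fold on the scale shown, in rows for induced-only, shared and uninduced-only H3K27ac, then induced and uninduced Pol II. The 13 induced-only regions stand low, mostly beside taller shared ones, the uninduced-only row is empty, and each Pol II row holds 3 regions.

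The other large clusters lay inside ASPRV1 as RefSeq bounds it (13 regions over 129.8 kb, 0 uninduced-only), across DAGLA, the gene of an endocannabinoid-producing lipase (13 regions, 1 uninduced-only), on chromosome 5 away from any protein-coding gene (12 regions over 162.8 kb, 1 uninduced-only) and around KLF4, a transcription factor gene of differentiated gut epithelium (12 regions over 178.2 kb, 2 uninduced-only). Their strongest regions had −log10 q of 17.7, 6.14, 15.9 and 7.37. In each of the 5 clusters, shared regions covered more bases than induced-only ones, as with 23.2 against 8.21 kb at THRB.

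In all, 3112 of the 19974 protein-coding genes, or 15.6%, held an induced-only region away from or at their ends, and 448 held 3 or more. Long genes led, since the median length was 189.6 kb for those with 3 or more and 24.2 kb for all genes. RAD51B, a gene of homologous recombination, held 21 induced-only, 91 shared and 2 uninduced-only regions over 863 kb. Beside THRB and ASPRV1, SHROOM3, a cytoskeletal gene of epithelial shape, held 11 and ME3, a mitochondrial malic enzyme gene, 10, each with 0 uninduced-only regions. PRKCE held 10 with 2 uninduced-only, and FOXP1, a forkhead factor gene, held 12 with 10. These genes were picked for their number of induced-only regions, so their balance is a description.

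TCF7L2 itself was among them. The gene held 10 induced-only, 20 shared and 2 uninduced-only regions. Its induced-only regions ran from a −log10 q of 2.40 to 9.27, and the highest lay at chr10:113067192-113067862, 328 bp from an uninduced region. The highest Pol II fold of the gene was 9.72 in the induced and 11.0 in the uninduced list.

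Among genes of at least 20 kb, MSH5, LOC107986768 and ZNF611 were among the densest. Each held 4 induced-only and 0 uninduced-only regions, beside 3 shared regions in MSH5, 2 in LOC107986768 and 1 in ZNF611.

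Gene lists were compared by the number of genes with a one-condition region within 10 kb. Among all protein-coding genes, 22.8% had an induced-only and 24.6% an uninduced-only region that near. Of 40 genes of colonocyte differentiation, 16 (40%) had an induced-only and 8 (20%) an uninduced-only region. Of 40 Wnt and TCF target genes, 9 (22.5%) had an induced-only and 20 (50%) an uninduced-only region. Summed over each list, there were 36 induced-only and 11 uninduced-only regions near colonocyte genes, and 24 and 59 near Wnt genes. The sums over all protein-coding genes were 7308 and 8384. Single genes weighed on the list sums, with 5 of the 36 at PHGR1, 10 of the 24 at TCF7L2 and 14 of the 59 at ZNRF3. These lists were written with earlier results of these data known, neighbouring genes share regions, and no test was made of either difference.

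Near colonocyte genes, 14 had induced-only regions alone, 2 had both kinds and 6 had uninduced-only regions alone. Over all 19974 protein-coding genes these counts were 2822, 1732 and 3177. PHGR1, a small protein gene of colonic epithelium, had 5 induced-only and no uninduced-only regions that near. Their −log10 q lay between 2.74 and 8.09, and the closest to an uninduced region was 235 bp from it. The strongest by the list rule (18.5, fold 6.91) was 9.13 kb from OTOP2, a marker of a colonocyte subtype. It lay inside the neighbouring gene OTOP3, at chr17:74943042-74944237. The region with the highest fold of all came right after it, at chr17:74944403-74945219, so the 2 are close neighbours. CEACAM6, a surface glycoprotein gene, had one of 8.24 and PHGR1 one of 8.09. Genes with induced-only regions alone also included FABP1, a fatty acid binding protein gene, CEACAM5, LGALS4, GUCA2A, TSPAN1, KLF5, HNF4A, ANPEP, DPP4 and CLDN7. KLF4 and BEST4 had both. KRT20, CA4, CDH17, EFNA1, EFNB2 and TFCP2L1 had uninduced-only regions alone. For Pol II the list lay close to all genes. Of 24 genes with Pol II in both lists, 10 had the higher fold in the induced list, with a median log2 ratio of −0.13 beside −0.10 for all genes.

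Near Wnt and TCF targets the order turned. Only DKK1, a secreted Wnt inhibitor gene, and EPHB2, an Eph receptor gene of crypt position, had induced-only regions alone. RNF43, LEF1, TCF7L2, EPHB4, CD44, TNFRSF19 and LRP6 had both kinds. Among the 13 with uninduced-only regions alone were AXIN2, LGR5, ZNRF3, NKD1, NKD2 and APCDD1, feedback or stem cell genes of the pathway. After TCF7L2, the strongest induced-only regions of the list were inside LEF1 (9.24), inside LRP6 (8.43), which held 4 of its 5 in 2 close pairs, and inside TNFRSF19 (6.49). The nearest induced-only region was 65.1 kb from AXIN2, 41.1 kb from LGR5, 84.9 kb from ASCL2 and 51.4 kb from MYC. These distances were not unusual, since the median was 48.8 kb for the Wnt list and 69.4 kb for all protein-coding genes. The median log2 Pol II ratio of the Wnt list was −0.09, beside −0.10 for all genes. Of 33 genes of this list with Pol II in both lists, 9 had the higher fold in the induced list. Over all genes it was 5797 of 14196, a higher share, and the difference was not tested.

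**Figure D5:**
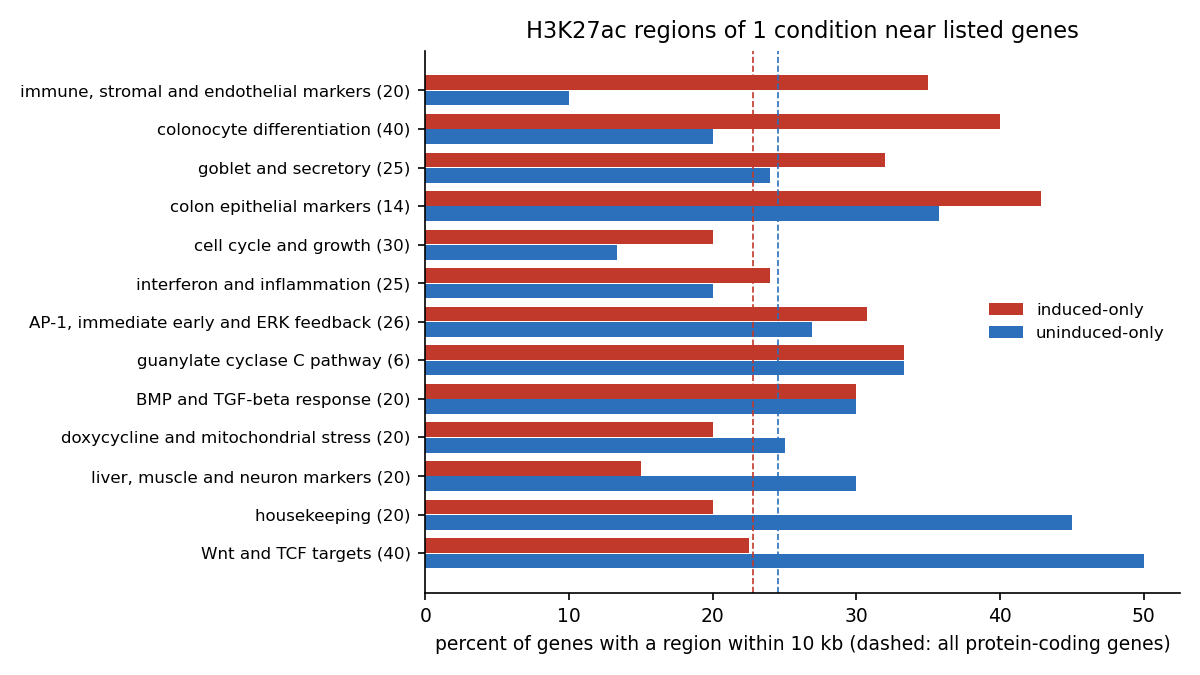
Percent of the genes in each list with an induced-only (red) or uninduced-only (blue) H3K27ac region within 10 kb, list sizes in brackets; dashed lines mark all protein-coding genes, at 22.8% and 24.6%. Colonocyte differentiation (40% and 20%) and immune, stromal and endothelial markers (35% and 10%) lean one way, Wnt and TCF targets (22.5% and 50%) and housekeeping genes (20% and 45%) the other.

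Lists with no tie to the colon differed by as much. Of the 20 immune, stromal and endothelial markers, 7 (35%) had an induced-only and 2 (10%) an uninduced-only region, led by CD3E, a T cell receptor subunit gene (9.54), PDGFRB (8.37), PTPRC (5.58) and LUM (4.97). Of these 20 genes, 8 had an H3K27ac region at a gene end in the induced and 7 in the uninduced list, and PTPRC, LUM, VWF and CDH5 were among those with none in either. Of 20 housekeeping genes the counts were 4 and 9, and of 20 liver, muscle and neuron markers 3 and 6. Goblet and secretory genes had 8 and 6 of 25, with CLCA1 (4.81), AGR3 (4.36), FOXA3 (4.27) and DLL4 (2.93). AP-1, immediate early and ERK feedback genes had 8 and 7 of 26. Within 10 kb of SPRED2, an ERK inhibitor gene, there were 10 induced-only regions against 2 uninduced-only. BMP and TGF-β response genes had 6 and 6 of 20, with BMP2 leading (6.90). Cell cycle genes had 6 and 4 of 30, led by CDK6 (7.54). Interferon and inflammation genes had 6 and 5 of 25, led by MX1 (7.37), and stress genes 4 and 5 of 20, led by PSAT1 (4.27). Colon epithelial markers had 6 and 5 of 14, with LGALS4 leading (6.23).

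In the guanylate cyclase C pathway, which controls intestinal fluid secretion, 2 of 6 genes (33.3%) had an induced-only region within 10 kb and 2 of 6 an uninduced-only one, beside 22.8% and 24.6% of all protein-coding genes. Beside GUCA2A, the guanylin gene, 2 lay under 1 wide Pol II region. They were at chr1:42167633-42167917, with 285 bp and a fold of 3.32 at a −log10 q of 4.27, and at chr1:42168043-42168684, with 642 bp and a fold of 4.25 at 6.92. The first was 2.89 kb from the gene and 916 bp from an uninduced region. CFTR, the chloride channel that the pathway opens, had 8 induced-only regions, with −log10 q between 2.04 and 5.99, and 4 uninduced-only regions, with 2.49 to 11.1. For GUCA2B, the uroguanylin gene, the nearest induced-only region was the one beside GUCA2A, 11.8 kb away, and for the receptor gene GUCY2C, which itself held an uninduced-only region, it was 21.1 kb away.

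At genes rich in induced-only regions, the Pol II ratio lay within counting error of that of all genes. For 264 genes with 3 or more induced-only and no uninduced-only regions within 10 kb, 235 had Pol II in both lists. The fold was higher in the induced list for 44.3% (38.05 to 50.65) of these, with a median log2 ratio of −0.08. For 333 genes with the reverse pattern, 288 had Pol II in both lists, with 43.4% (37.8 to 49.2) higher and a median of −0.05. Over all genes 40.8% were higher.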

How the data were processed

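Regions came from the peak lists of both antibodies; the 24 RNA samples were not used here. Per the submitters' processing notes, tools included BWA 0.7.17-r1188, SAMtools 1.10 and MACS2 2.1.1.20160309. Peaks were called by the authors as 1 list per antibody and condition; the caller's settings and any pooling of reads are not given in these sources. For each summit the deposited lists give a fold enrichment (a ratio over local background) and a −log10 q. Lists begin at a −log10 q of 1.31 (induced H3K27ac) and 1.30 (the others). The notes name hg19 and hg38; chromosome 17 regions reach 83228308, past its end in GRCh37, so positions are GRCh38, given 1-based.

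Rows of 1 region were collapsed to its highest fold and −log10 q. Overlap needed 1 bp, and bedtools 2.31.1 gave the same 9862 regions. Gene ends, names and promoters came from RefSeq (GRCh38.p14, 19974 protein-coding genes). Set and gap counts were tested on simulated intervals. The members and gene lists were chosen with earlier results of these data known. Genes named were the strongest, widest and densest regions and clusters, the highest Pol II values, and up to 4 genes per list, of which 1 gene is not reported here; others are named beside counts, after their values were seen. Neighbour, bin and gene-level Pol II measures were added after the data were seen.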

Additional observations from a re-analysis of the deposited data

How the results depend on the processing

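Depth behind the lists is known only as a range, and a region missing from a list may be one that missed the caller's limit. No paired analysis was possible because 1 list serves both samples of a condition and no result comes from a test. Of 60 alternative values, 27 stayed within their interval or within 1.5 times the count, 33 moved and 0 reversed.
With a −log10 q of at least 5 asked of induced-only regions, 2731 were left, with a median width of 460 bp, 3.59% at gene ends, 45.0% inside genes, 16.1% with another within 10 kb and 0.989% with Pol II of the induced list alone. With regions within 1 kb of an uninduced one taken as shared, 5541 were left, with a median width of 380 bp, 3.32% at gene ends and 29.8% with another within 10 kb. A −log10 q of at least 2 in both lists gave a median width of 381 bp. Lists of equal length gave 378 bp and 31.1% with another within 10 kb. Gene-end windows of 500 bp and 5 kb gave 2.61% and 16.9%. Another induced-only region lay within 50 kb of 61.7%, and an uninduced region within 5 kb of 66.6%. Induced Pol II was met by 3.92% with a Pol II −log10 q of at least 5, by 10.2% within 1 kb and, chosen after seeing the data, by 4.28% at the summit. Pol II of the induced list alone was met by 0.142% at a −log10 q of at least 5 and by 0.395% with no uninduced Pol II within 1 kb.
The order of both gene lists held under all 5 alternatives, of which 4 were chosen after seeing the data, but its size did not. Induced-only and uninduced-only counts for colonocyte genes were 8 and 3 for regions of −log10 q 5 or more, 7 and 4 with regions within 1 kb taken as shared, and 24 and 19 at 50 kb. For Wnt and TCF targets they were 4 and 10, 5 and 13, and 20 and 31. The shares over all protein-coding genes were not measured under these alternatives.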

Other observations

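At ends of noncoding genes, too, shared regions had the highest share. An induced-only region lay within 1 kb of an lncRNA gene end in 4.28% (3.90 to 4.70) of cases, against 9.91% of shared and 3.95% of uninduced-only regions. For miRNA genes the shares were 0.294% (29 regions), 0.645% and 0.247%.

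Outside chromosomes 1 to 22 and X, 74 of 561 induced regions, or 13.2%, were induced-only, and 4 of these overlapped an induced Pol II region. In the uninduced list 95 of 550 had no induced partner there.

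PRKAR2B, the gene of a regulatory subunit of protein kinase A, had an induced-only region at a start site far from uninduced acetylation, and was chosen after its values were seen. The region had a fold of 4.83 at a −log10 q of 10.4. It lay 99.3 kb from the nearest uninduced region and met no Pol II region of either list.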
